A study of Mus musculus with 15 samples.

Results

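Fat from mice that lacked LKB1 in adipocytes was compared with fat from mice that kept it, across every expressed gene. KO mice carried AdipoqCre with floxed LKB1 alleles (AdipoqCre LKB1 F/F), and WT mice carried the same floxed alleles without the recombinase (LKB1 F/F). All were C57BL/6 mice aged 8 weeks, and the tissue was inguinal white adipose tissue, a fat depot under the skin. The comparison used 10 of the 15 libraries of the series, those labelled KO or WT by genotype, with 1 library per mouse and 5 mice per group. The other 5 libraries came from mice in which HDAC4 was floxed as well and are left out. Adiponectin-driven Cre acts in adipocytes, whereas RNA came from the intact depot, with its immune cells, vessels and stroma.

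LKB1, the product of Stk11, is a kinase that switches on AMPK, the sensor of cellular energy, and a set of AMPK-related kinases that include the salt-inducible kinases. These relatives hold cAMP-responsive transcription in check through the CRTC coactivators and the class IIa histone deacetylases. Beige adipocytes are fat cells of subcutaneous depots that can switch on the program of brown fat, in which cAMP signalling induces the uncoupling protein UCP1 and fatty acids are burned to make heat.

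The libraries held 2969355 to 21570688 counts in KO and 2181109 to 4062909 counts in WT, with the highest total in KO replicate 1 (exact two-sided permutation p = 0.317 for the means, n = 5 each). Levels are given as CPM, counts scaled to a common library size, and 1 count was worth 0.0471 to 0.424 CPM in KO libraries and 0.262 to 0.382 CPM in WT libraries. Mitochondrial ribosomal RNA took 38.6 to 50.03% of the counts in KO and 35.4 to 46.3% in WT. The summed level of 8 adipocyte markers ran from 6722 to 11755 CPM in KO and from 6049 to 9310 CPM in WT, so adipocyte markers were abundant in every library. Skeletal muscle RNA varied from mouse to mouse. The summed level of the 15 muscle genes was 202, 92.3, 3657, 409 and 285 CPM in KO mice 1 to 5, against 1368, 74.6, 109, 63.4 and 25.4 CPM in WT mice 1 to 5. KO replicate 3 and WT replicate 1 stood far above the rest, and counts of the thermogenic and mitochondrial lists are given below also without both of them. The summed epithelial level was 2.55 to 11.8 CPM in KO mice, against 79.7 CPM in WT replicate 1 and 8.65 to 17.0 CPM in the other WT mice.

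Of 37991 genes in the table, 11708 were expressed above the filter and tested. A gene was called where the adjusted p of edgeR's quasi-likelihood test was under 0.05. By this rule 224 genes (1.91% of those tested) were called. Of them, 164 (1.4%) were higher in KO and 60 (0.512%) were lower, and the median log2 fold change over all tested genes was −0.01. A positive fold change was found in 48.5% of all tested genes. These shares are the background for every list count given below. The lists were chosen with earlier results of these data known, so a list count beside these shares is a description and no test. The difference exceeded a log2 fold change of 1 in either direction for 56 higher and 26 lower genes. For 172 of the 224, no KO mouse overlapped any WT mouse, against 359 (3.07%) of all tested genes. The number of calls depended on single mice: it was 119, 132, 133, 149 and 126 without KO replicate 1, 2 or 3 or WT replicate 1 or 4, in that order. Without both muscle-rich libraries 97 genes were called, 65 higher and 32 lower, and 88 of them were among the 224. All 224 kept their direction in each of those fits.

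**Figure D1:**
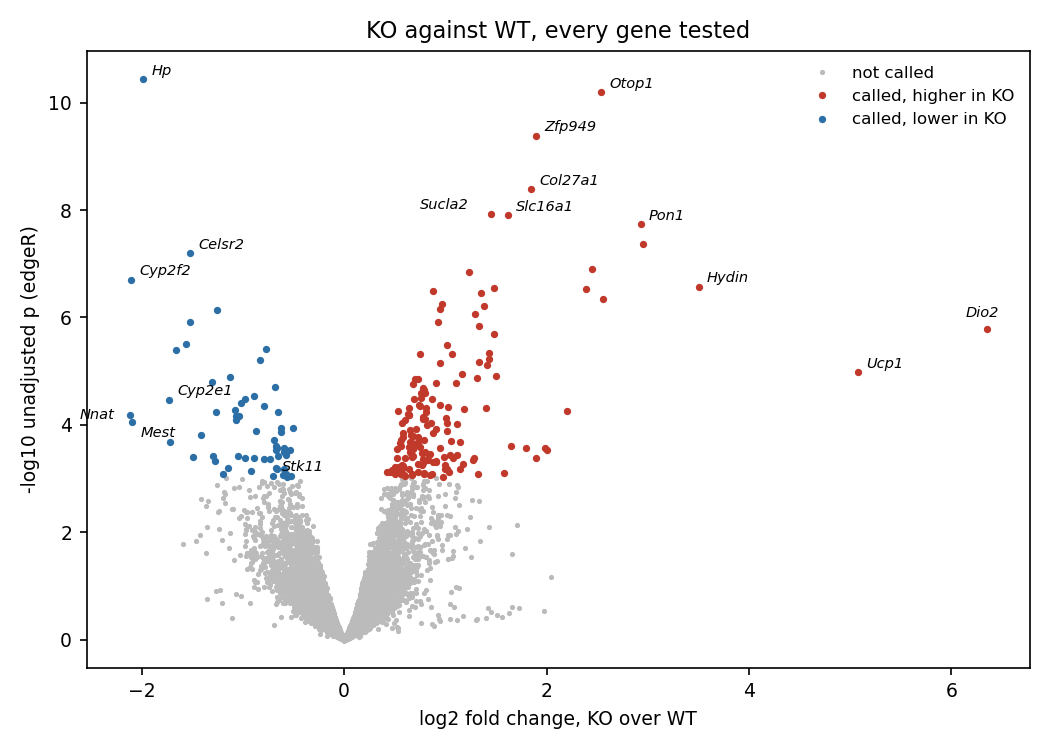
Each point is 1 of the 11708 tested genes, with the log2 fold change of KO over WT on the x axis and −log10 of the unadjusted p on the y axis. Red points are the 164 genes called higher, blue points the 60 called lower and grey points the rest, with Dio2 and Ucp1 farthest to the right and Hp, Nnat and Cyp2f2 among the farthest to the left.

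The targeted gene was lower in KO fat, by a margin that the 5 mice per group only just resolved. Stk11 (ENSMUSG00000003068, mm9 chr10:79578548-79593427) had 18.4, 22.0, 11.5, 19.98 and 16.1 CPM in KO mice, against 22.4, 36.4, 33.7, 24.8 and 28.8 CPM in WT mice. No KO mouse reached the lowest WT mouse, though KO replicate 2 and WT replicate 1 lay close together. The log2 fold change of Stk11 was −0.70 (SE 0.18, adjusted p = 0.0466). It did not pass without any 1 of KO replicates 1 to 5 or WT replicates 2 to 5 (adjusted p = 0.0506 to 0.118), and over all alternatives the adjusted p of Stk11 ran from 0.0203 to 0.188. The count covers all exons of the gene and all cells of the tissue, including those in which the Cre is not active, and Stk11 shares 232 exonic bases with the opposite-strand gene Dos. In a bulk sample, fewer cells of a type and less RNA per cell cannot be told apart.

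The partners of LKB1 and the kinases it activates gave no call. Of 19 tested members of that list, which leaves out Stk11 itself, 0 were called, and their median log2 fold change was 0.06. Sik2, a salt-inducible kinase abundant in fat, averaged 307 CPM in KO and 247 CPM in WT (log2 fold change 0.31, adjusted p = 0.361). Prkaa1, a catalytic subunit of AMPK, averaged 52.8 CPM in KO and 52.6 CPM in WT. Among the CRTC coactivators, class IIa histone deacetylases and MEF2 factors, 0 of 13 tested members were called, with a median of −0.09. Only 1.91% of all tested genes were called, so 0 calls in lists of this size does not set these genes apart.

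The largest rises in KO fat were those of Dio2 and Ucp1, both of the brown and beige fat program. Dio2 (ENSMUSG00000007682, mm9 chr12:91962994-91976878), the deiodinase that makes active thyroid hormone in brown fat, had 345, 187, 223, 98.5 and 106 CPM in KO mice, against 5.26, 0.597, 2.09, 1.53 and 1.83 CPM in WT mice. Even the lowest KO mouse was far above every WT mouse. Ucp1 (ENSMUSG00000031710, mm9 chr8:85814247-85822355), the uncoupling protein that lets brown fat mitochondria release energy as heat, had 683, 555, 620, 252 and 286 CPM in KO mice, against 23.4, 4.48, 9.53, 6.88 and 24.9 CPM in WT mice. KO mice 1 to 3 were highest and KO mice 4 and 5 were lower, yet still clear of all WT mice. Per kilobase of gene model, Ucp1 stood at 291 CPM in KO and 8.42 CPM in WT, and Dio2 at 33.0 CPM in KO and 0.389 CPM in WT. The log2 fold change was 6.35 for Dio2 (SE 0.57, adjusted p = 0.000723) and 5.08 for Ucp1 (SE 0.55, adjusted p = 0.00293). Dio2 shares 100 exonic bases with the opposite-strand gene Gm16738.

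The windows upstream of 4 genes that rose are shown because cAMP acts on transcription through CREB, which binds TGACGTCA or its shorter form TGACG. They are the 250 bases before the RefSeq start of each gene, on its own strand, from GRCm38.p6, which is not the mm9 build of the counts. Their positions in GRCm38.p6 are chr12:90739039-90739288 (minus strand) for Dio2, chr8:83290098-83290347 (plus strand) for Ucp1, chr5:51567726-51567975 (minus strand) for Ppargc1a and chr6:50566570-50566819 (minus strand) for Cycs. Capitals mark each TGACGTCA or TGACG on either strand, where a TGACG on the opposite strand reads CGTCA.
Dio2: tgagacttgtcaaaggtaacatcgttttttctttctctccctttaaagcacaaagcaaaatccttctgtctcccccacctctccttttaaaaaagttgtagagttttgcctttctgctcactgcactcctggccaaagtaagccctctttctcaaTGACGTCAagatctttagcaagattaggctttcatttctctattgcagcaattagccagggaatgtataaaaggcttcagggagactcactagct
Ucp1: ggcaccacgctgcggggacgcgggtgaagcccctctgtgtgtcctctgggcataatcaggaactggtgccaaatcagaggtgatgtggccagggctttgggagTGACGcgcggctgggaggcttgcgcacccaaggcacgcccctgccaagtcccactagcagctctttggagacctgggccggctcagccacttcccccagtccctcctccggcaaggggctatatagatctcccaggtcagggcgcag
Ppargc1a: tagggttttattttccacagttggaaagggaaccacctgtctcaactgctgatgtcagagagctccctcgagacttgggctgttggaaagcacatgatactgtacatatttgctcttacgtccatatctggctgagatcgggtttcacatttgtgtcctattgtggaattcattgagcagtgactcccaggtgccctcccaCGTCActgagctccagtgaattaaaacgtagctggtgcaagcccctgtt
Cycs: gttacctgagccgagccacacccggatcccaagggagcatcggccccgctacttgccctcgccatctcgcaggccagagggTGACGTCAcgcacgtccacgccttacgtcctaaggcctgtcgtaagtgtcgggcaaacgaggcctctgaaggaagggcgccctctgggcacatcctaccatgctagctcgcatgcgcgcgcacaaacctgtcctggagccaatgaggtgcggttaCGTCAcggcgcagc
Dio2 and Cycs hold the full motif, and Ucp1 and Ppargc1a hold the short motif. Sequences were to be limited to the genes always named, the largest rises and falls, and paired isoforms, and no rule set which of these to show. Cycs lies outside that limit and was shown all the same. It is not among the largest rises, and its groups overlapped (72.6 CPM in KO replicate 4, 74.4 CPM in WT replicate 5). The 4 genes do not stand for all genes that rose. Of the 164 genes that rose, 117 were found in the RefSeq promoter table. TGACGTCA was in 7 of those 117 (5.98%) and in 0 of 41 matched genes that fell. It was in 251 of 8154 tested genes (3.08%) and 478 of all 27025 genes of the promoter table (1.77%). CREB motifs were 2 of 5 motifs searched on both strands. The E-box CACGTG was in 11 of the 117 (9.4%), 4 of the 41 (9.76%), 817 of the 8154 and 1854 of the 27025 (6.86%). The oestrogen-related receptor element TCAAGGTCA and the direct repeat of AGGTCA with 1 base between its copies were in 0 of the 117 and 0 of the 41, and in 24 (0.294%) and 5 (0.0613%) of the 8154. The short CREB motif, which every full motif contains, was in 37 of the 117 (31.6%), 10 of the 41 (24.4%), 2502 of the 8154 (30.7%) and 5347 of the 27025 (19.8%). A letter match is a description and shows no binding.

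Of 35 matched genes of the thermogenic list, which covers brown and beige fat, 24 passed the expression filter and 11 were below it. Like the other lists, this one was chosen with earlier results of these data known, so its counts are a description and no test. Among the 24 tested, 14 rose and 0 fell, whereas 1.4% of all tested genes rose and 0.512% fell. Their median log2 fold change was 1.41, and in 13 of them every KO mouse was above every WT mouse, as was so for 215 (1.84%) of all tested genes. Otop1, a proton channel of brown fat, had 80.4, 64.8, 91.2, 42.8 and 60.9 CPM in KO mice, against 13.1, 11.04, 10.7, 8.79 and 14.2 CPM in WT mice (log2 fold change 2.54, SE 0.19, adjusted p = 3.67e-07). S100b, a calcium-binding protein that brown adipocytes secrete, had 34.3, 27.7, 29.7, 19.7 and 9.67 CPM in KO mice, against 2.10, 4.77, 3.28, 2.29 and 3.41 CPM in WT mice (2.95, SE 0.32, adjusted p = 6.21e-05). Neither gene overlapped between the groups. Ppargc1a, the coactivator PGC-1α that drives mitochondrial biogenesis, had 87.6, 76.9, 54.3, 32.9 and 56.6 CPM in KO mice, against 18.9, 20.3, 25.9, 29.4 and 23.6 CPM in WT mice (1.41, SE 0.22, adjusted p = 0.00229). KO replicate 4 came closest to the WT mice. Letmd1, a mitochondrial protein needed for brown fat thermogenesis in mice, averaged 67.1 CPM in KO and 26.3 CPM in WT (1.36, adjusted p = 0.000244). The 14 also include Cox7a1, Cox8b, Plin5, Gyk, Pdk4 and Slc27a2, which other lists count too and which are described with those.

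Several genes that define brown fat were not called. Cidea, which coats lipid droplets in brown fat, had 24.3, 20.7, 24.2, 15.8 and 15.04 CPM in KO mice, against 5.79, 3.58, 9.53, 10.3 and 22.0 CPM in WT mice (log2 fold change 0.97, SE 0.36, adjusted p = 0.248). WT replicate 5 lay among the KO mice, and without it the adjusted p of Cidea was 0.00684. This was the only 1 of 20 alternatives in which Cidea passed, and its adjusted p reached 0.795 in the others. Prdm16, a regulator of brown and beige fate, had 18.5, 14.4, 23.8, 19.1 and 25.4 CPM in KO mice, against 9.20, 9.25, 20.9, 8.79 and 9.70 CPM in WT mice (0.78, adjusted p = 0.116). Here WT replicate 3 lay among the KO mice, and without it the adjusted p of Prdm16 was 0.00645. Prdm16 passed under 2 of 20 alternatives, with an adjusted p of up to 0.396 in the others. Elovl3, an elongase of brown fat lipids, was below the expression filter, at 6.59, 2.59, 0.424, 0.563 and 0 CPM in KO mice, against 0.263, 0, 0, 0 and 0.262 CPM in WT mice. The brown-lineage markers Zic1 and Lhx8 had 0 counts in all 10 libraries. The genes of creatine and calcium cycling, other routes of heat production in beige fat, gave 0 calls among 14 tested members, with a median log2 fold change of 0.23.

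**Figure D2:**
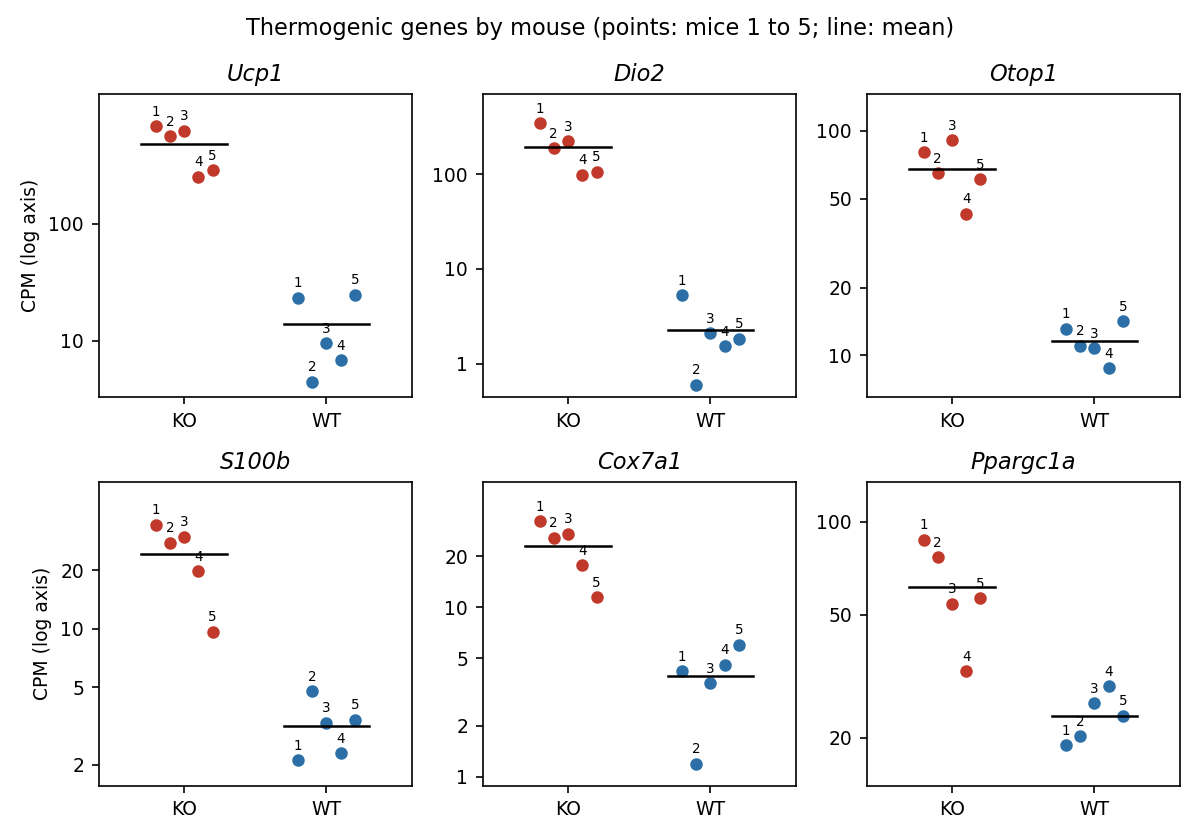
Points are the CPM of single mice (log axis), KO left of WT in each panel, with a line at the group mean, for Ucp1, Dio2, Otop1, S100b, Cox7a1 and Ppargc1a. In each of the 6 panels all 5 KO mice lie above all 5 WT mice, and the widest gap on the log axis is that of Dio2, with 98.5 CPM in the lowest KO mouse and 5.26 CPM in the highest WT mouse.

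Genes that break down fatty acids in mitochondria rose as well. Of 25 tested members, 9 rose and 0 fell, 22 had a positive fold change, and the median log2 fold change was 0.53. Over all tested genes, 1.4% rose and 48.5% had a positive fold change. Acaa2, the thiolase that ends each round of β-oxidation, had 168, 143, 178, 124 and 91.3 CPM in KO mice, against 53.1, 55.8, 63.5, 59.97 and 67.9 CPM in WT mice (1.23, SE 0.15, adjusted p = 0.000149). Acadm, the medium-chain acyl-CoA dehydrogenase, had 264, 259, 285, 228 and 196 CPM in KO mice, against 126, 117, 154, 102 and 137 CPM in WT mice (0.95, SE 0.13, adjusted p = 0.000382). Both genes were higher in all 5 KO mice than in any WT mouse. Acadl, the long-chain enzyme, averaged 184 CPM in KO and 90.8 CPM in WT (1.01, adjusted p = 0.00127). Slc25a20, which carries acylcarnitines into mitochondria, had 78.6, 69.5, 64.9, 48.7 and 56.6 CPM in KO mice, against 37.3, 35.5, 43.2, 34.4 and 41.7 CPM in WT mice (0.74, adjusted p = 0.00764). Etfa, which passes electrons from the dehydrogenases to the respiratory chain, rose by 0.75 on the log2 scale (adjusted p = 0.00543). Cpt1a, the liver-type carnitine palmitoyltransferase that lets fatty acids enter this route, was not called (log2 fold change −0.14, adjusted p = 0.837), nor was the acyl-CoA synthetase Acsl1 (0.16, adjusted p = 0.740).

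The tricarboxylic acid cycle, which oxidises the acetyl-CoA that results, gave 12 rises and 0 falls among 23 tested members, with a median log2 fold change of 0.60. Sucla2, the ATP-forming subunit of succinyl-CoA synthetase, had 154, 147, 227, 116 and 127 CPM in KO mice, against 50.5, 54.6, 56.6, 61.9 and 58.5 CPM in WT mice (1.45, SE 0.15, adjusted p = 2.4e-05). Idh3a, the catalytic subunit of NAD-dependent isocitrate dehydrogenase, had 184, 172, 173, 88.3 and 104 CPM in KO mice, against 50.8, 42.1, 54.5, 45.8 and 65.8 CPM in WT mice (1.48, SE 0.20, adjusted p = 0.000843). The groups did not overlap in either gene, and KO mice 4 and 5 were again the lowest of the KO mice in Sucla2 and Idh3a. Suclg1, the partner subunit of Sucla2, rose by 1.17 on the log2 scale (adjusted p = 0.00314). Suclg2, the GTP-forming alternative to Sucla2, was not called (0.17, adjusted p = 0.661), and neither was Pcx, pyruvate carboxylase, at −0.22. The count of 12 was 7 without KO replicate 1 or 2 or WT replicate 1 or 4, and 15 at most without any other single mouse.

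Subunits of the respiratory chain had smaller median fold changes, with calls in some complexes and not in others. For complexes III and IV with cytochrome c, 6 of 23 tested members rose, all 23 fold changes were positive and the median was 0.49. Complex I gave 2 rises among 36 members (35 positive, median 0.39) and ATP synthase gave 0 among 17 (15 positive, median 0.34). Among all tested genes, 1.4% rose and 48.5% were positive. Cox7a1, the heart, skeletal muscle and brown fat form of a cytochrome c oxidase subunit, had 32.2, 25.8, 27.2, 17.7 and 11.5 CPM in KO mice, against 4.21, 1.19, 3.58, 4.58 and 6.03 CPM in WT mice (2.56, SE 0.32, adjusted p = 0.000292). Cox8b, the corresponding tissue-specific form of another subunit, had 44.6, 44.1, 39.5, 26.2 and 21.5 CPM in KO mice, against 14.5, 11.04, 10.4, 10.3 and 19.4 CPM in WT mice (1.43, SE 0.22, adjusted p = 0.00194). Uqcrc2, a core protein of complex III, rose by 0.70 (adjusted p = 0.0035) and Cycs, cytochrome c, by 1.01 (adjusted p = 0.0148) on the log2 scale. In complex I, Ndufab1, the acyl carrier protein (0.56, adjusted p = 0.0229), was lost without KO replicate 1 or 2 or WT replicate 1 or 4 (adjusted p = 0.0592 to 0.0874). The complex I list held 0 calls without KO replicate 2 or WT replicate 4, 1 without KO replicate 1 or WT replicate 1, and 5 without KO replicate 5.

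Paired isoforms gave a measure within each library. Per kilobase, Cox7a1 made up 60.8, 56.0, 57.0, 51.9 and 36.6% of the sum of Cox7a1 and Cox7a2 in KO mice, against 20.1, 9.72, 16.7, 29.0 and 24.4% in WT mice. The share of Cox8b in the sum of Cox8b and Cox8a was 43.3, 42.2, 35.7, 35.4 and 27.5% in KO mice, against 26.6, 21.9, 17.1, 20.6 and 23.3% in WT mice. Both shares were higher in all 5 KO mice than in any WT mouse, with Cox8b of KO replicate 5 close to WT replicate 1. The part of skeletal muscle RNA in these shares was not tested. The 12 tested messenger RNAs of the mitochondrial genome itself all had positive fold changes (median 0.57), but only mt-Nd1, a complex I subunit, was called (1.01, adjusted p = 0.0407), and it passed under 5 of 20 alternatives, not without KO replicate 1, 2, 3 or 5 or WT replicate 1, 2, 3 or 4 (adjusted p = 0.0502 to 0.112) and not without both muscle-rich libraries. Mitochondrial messenger RNA was 11.8 ± 2.84% of the counts other than mitochondrial ribosomal RNA in KO and 9.37 ± 2.08% in WT (SD, n = 5 each; exact two-sided permutation p = 0.167, 0.512 adjusted over 6 tests).

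The KO mice were not alike in these genes. KO replicates 4 and 5 held the lowest KO value of 7 and 5 of the 14 called thermogenic genes, of 5 and 4 of the 9 called fatty acid oxidation genes, and of 5 and 7 of the 12 called cycle genes. The summed level of 7 brown or beige adipocyte markers was 892, 738, 790, 357 and 407 CPM in KO mice, against 80.5, 47.7, 73.9, 71.0 and 120 CPM in WT mice. Even the lowest KO mouse, replicate 4, was above the highest WT mouse, replicate 5. Most of each KO sum was Ucp1 itself, at 683, 555, 620, 252 and 286 CPM, so this gap is mainly that of Ucp1. Cidea and Kcnk3, which are also in the sum, overlapped between the groups. Skeletal muscle, which also holds many mitochondria, varied too: of its 9 tested genes 0 were called, 8 had positive fold changes and the median log2 fold change was 1.31, with Tnnc2 at 0 in every library. Without the muscle-rich KO replicate 3 and WT replicate 1, the calls were 12 in place of 14 for the thermogenic list, 6 in place of 9 for fatty acid oxidation, 5 in place of 12 for the cycle, 3 in place of 6 for complexes III and IV and 0 in place of 2 for complex I. With the muscle level as a covariate these counts were 13, 8, 8, 4 and 1. Among the mice labelled 957 to 979, which are replicates 3 to 5 of each group, they were 8, 1, 1, 1 and 0, and Ucp1 (adjusted p = 0.107), Ppargc1a (0.108) and Cox8b (0.142) did not pass. In a fit that also held the other 5 libraries of the series they were 13, 5, 3, 2 and 0.

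**Figure D3:**
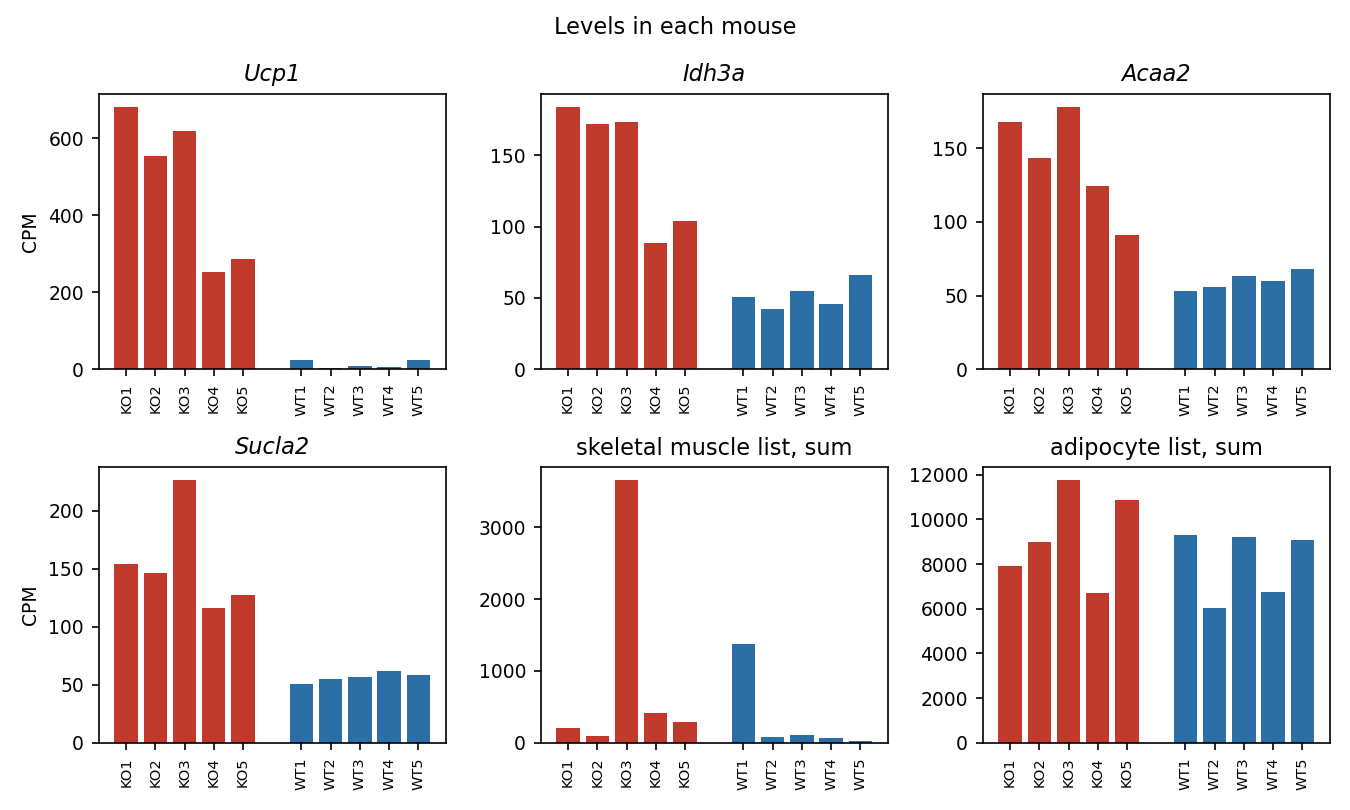
Bars give the CPM of each mouse, KO mice 1 to 5 left of WT mice 1 to 5, for Ucp1, Idh3a, Acaa2, Sucla2, the summed skeletal muscle list and the summed adipocyte markers. Ucp1, Idh3a, Acaa2 and Sucla2 are higher in every KO mouse than in any WT mouse, whereas muscle RNA peaks in KO replicate 3 (3657 CPM) and WT replicate 1 (1368 CPM) and the adipocyte sum overlaps between the groups.

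Genes of other fuel routes changed in a few places. Slc16a1, the transporter MCT1 that moves lactate, pyruvate and ketone bodies across the cell membrane, had 78.2, 58.0, 85.3, 64.4 and 73.8 CPM in KO mice, against 26.8, 15.8, 25.6, 17.6 and 30.1 CPM in WT mice. No KO mouse came near the WT mice, and the log2 fold change was 1.62 (SE 0.17, adjusted p = 2.4e-05). It was 1 of 5 rises and 0 falls among 34 tested genes of glycolysis and glucose use, whose median was 0.25. Pdk4, the kinase that shuts pyruvate dehydrogenase, had 244, 220, 351, 163 and 379 CPM in KO mice, against 30.5, 50.7, 92.1, 104 and 89.1 CPM in WT mice (1.89, adjusted p = 0.0298). Gys2, a glycogen synthase, had 58.0, 47.3, 48.8, 16.9 and 31.2 CPM in KO mice, against 16.04, 3.58, 8.34, 9.55 and 12.8 CPM in WT mice (2.01, adjusted p = 0.0247). Neither gene overlapped between the groups, yet Pdk4 did not pass without KO replicate 1, 2, 3 or 5 or WT replicate 2, 3 or 5 (adjusted p = 0.0525 to 0.0821), and Gys2 not without KO replicate 2 or 3 or WT replicate 3 or 4 (0.0573 to 0.0825). The count of 5 for the list was 1 without KO replicate 2 or 3, 2 without KO replicate 1 or WT replicate 2, 4 or 5, 3 without WT replicate 1 or 3 and 9 without KO replicate 4. Slc2a4, the insulin-responsive glucose transporter, and Hk2, a hexokinase, were not called (−0.15 and 0.06).

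Breakdown of branched-chain amino acids gave 3 rises and 0 falls among 24 tested genes (median 0.28). These were Pcca, a subunit of propionyl-CoA carboxylase (0.78, adjusted p = 0.0046), Bckdhb, a subunit of the branched-chain ketoacid dehydrogenase (0.95, adjusted p = 0.00764), and Acat1, a mitochondrial thiolase (0.63, adjusted p = 0.0092). Ketone body and acetate genes gave 2 rises, which were Slc16a1 and Acat1, and 1 fall among 9 (median 0.24). The fall in that list was lost without KO replicate 1, 2 or 4 or WT replicate 1, 2, 3 or 4. Mitochondrial solute carriers gave 3 rises among 21 (median 0.34), and 5 without KO replicate 4. Among 23 antioxidant genes, 3 rose and 1 fell (median 0.25). Sod2, the superoxide dismutase of the mitochondrial matrix, had 176, 156, 174, 123 and 146 CPM in KO mice, against 87.8, 63.9, 85.8, 70.7 and 98.0 CPM in WT mice (0.93, SE 0.13, adjusted p = 0.000562). Gpx1, the intracellular glutathione peroxidase, rose by 0.69 on the log2 scale (adjusted p = 0.00637). Gpx3, the secreted glutathione peroxidase, went the other way, with 117, 131, 59.0, 136 and 92.0 CPM in KO mice, against 267, 266, 400, 235 and 149 CPM in WT mice (−1.29, adjusted p = 0.029). Gpx3 did not pass without KO replicate 1 or 5 or WT replicate 1, 2 or 4 (adjusted p = 0.0568 to 0.0836). Genes of the mitochondrial and integrated stress responses gave 2 rises among 17 (median 0.31), one of them Hspd1, the mitochondrial chaperonin (0.64, adjusted p = 0.00939). Peroxisomal genes gave 0 calls among 30 (median 0.23), and genes of mitochondrial DNA and translation 2 rises among 36 (median 0.25). The count for mitochondrial DNA and translation was 0 without KO replicate 1 and 1 without KO replicate 2, 3 or 4 or WT replicate 1, 2, 4 or 5, and that for the stress responses was 1 without KO replicate 1, 2 or 3 or WT replicate 4. Without both muscle-rich libraries the rises were 2 for branched-chain amino acids, 1 for ketone bodies and acetate, 1 for solute carriers, 2 for antioxidant genes, 0 for the stress responses and 0 for mitochondrial DNA and translation.

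**Figure D4:**
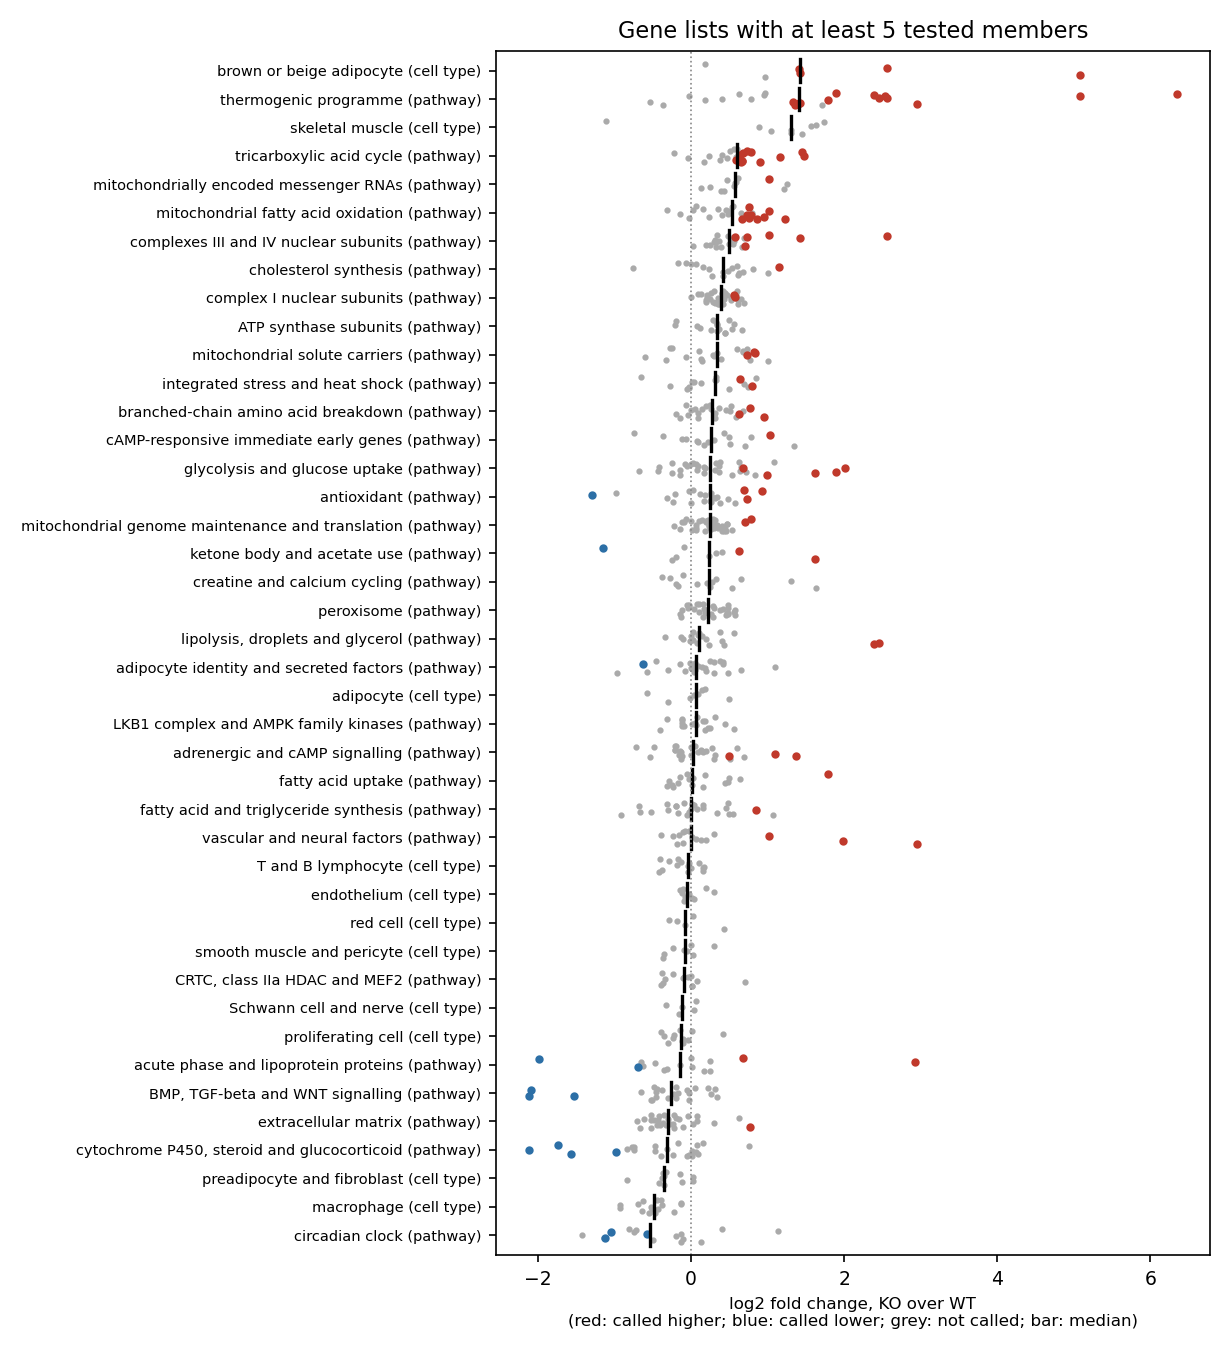
Each point is the log2 fold change of KO over WT of 1 tested gene, by gene list, for lists with at least 5 tested members, with a bar at the list's median. The brown or beige adipocyte markers (median 1.42) and the thermogenic list (1.41) lie highest, followed by the skeletal muscle list (1.31, 0 called), and the fatty acid oxidation (0.53) and cycle (0.60) lists lie right of the median of all tested genes (−0.01).

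Few genes of fat storage were called, as was so for all tested genes (1.91%). Of 26 tested genes of adipocyte identity, 0 rose and 1 fell, with a median log2 fold change of 0.07. Adipoq, adiponectin, whose promoter drives the Cre, had 330, 350, 367, 258 and 344 CPM in KO mice, against 406, 285, 526, 390 and 424 CPM in WT mice (−0.30, adjusted p = 0.403). Lep, leptin, had 287, 230, 230, 237 and 168 CPM in KO mice, against 303, 462, 445, 207 and 163 CPM in WT mice (−0.45, adjusted p = 0.536). Both groups overlapped in these genes. The gene that fell was Itih5, an extracellular matrix protein abundant in fat, with 202, 203, 174, 170 and 192 CPM in KO mice, against 294, 288, 378, 267 and 229 CPM in WT mice (−0.63, adjusted p = 0.0135). Of 19 tested lipolysis and lipid droplet genes, 2 rose and 0 fell (median 0.11). Plin5, which tethers lipid droplets to mitochondria, had 14.1, 8.75, 18.2, 11.5 and 14.7 CPM in KO mice, against 3.16, 0.895, 2.09, 1.91 and 3.67 CPM in WT mice (2.45, SE 0.30, adjusted p = 0.000144). Gyk, the glycerol kinase that lets fat cells reuse glycerol, had 36.3, 28.5, 46.3, 17.2 and 26.9 CPM in KO mice, against 4.21, 8.06, 4.17, 3.44 and 9.17 CPM in WT mice (2.39, SE 0.29, adjusted p = 0.00023). Neither overlapped between the groups. The lipases Pnpla2 and Lipe were not called (0.11 and 0.09).

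Fatty acid and triglyceride synthesis gave 1 call among 25 tested genes, with a median log2 fold change of 0.00. This was Scd1, the stearoyl-CoA desaturase, at 14322 CPM in KO and 7930 CPM in WT (0.85, adjusted p = 0.0278). Scd1 did not pass without KO replicate 1, 2 or 3 or WT replicate 1, 2 or 4 (adjusted p = 0.0583 to 0.0911). Fasn, fatty acid synthase, and Acaca, acetyl-CoA carboxylase, had negative fold changes that did not pass (−0.67 and −0.91, adjusted p = 0.660 and 0.337). Uptake of fatty acids gave 1 rise among 17 (Slc27a2, an acyl-CoA synthetase, 1.80, adjusted p = 0.0238), lost without KO replicate 2 or 3 or WT replicate 1, 2 or 4 (adjusted p = 0.0526 to 0.0732). Cholesterol synthesis gave 1 rise among 19, with a median of 0.42, and 0 without KO replicate 1 or 2 or WT replicate 1, 4 or 5. Without KO replicate 4 the uptake list gave 2 rises, and without KO replicate 5 cholesterol synthesis gave 2.

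The adrenergic and cAMP pathway, which starts thermogenesis, gave 3 rises and 0 falls among 30 tested genes, with a median log2 fold change of 0.02, and 5 rises without WT replicate 3. The share that rose among all tested genes was 1.4%. Adra1a, an α1-adrenergic receptor, had 37.2, 31.6, 49.2, 22.5 and 37.2 CPM in KO mice, against 15.5, 11.9, 14.003, 10.7 and 15.2 CPM in WT mice (1.38, SE 0.19, adjusted p = 0.000351). Pde4d, a phosphodiesterase that degrades cAMP, had 39.0, 31.4, 44.1, 31.5 and 48.0 CPM in KO mice, against 21.6, 9.85, 22.6, 16.4 and 18.9 CPM in WT mice (1.10, SE 0.19, adjusted p = 0.00389). The groups did not overlap in either gene, and both calls held under all 20 alternatives. Adrb3, the β3-adrenergic receptor that dominates in mouse adipocytes, averaged 72.8 CPM in KO and 105 CPM in WT and was not called (−0.54, adjusted p = 0.265). Prkar2b, a regulatory subunit of protein kinase A, rose by 0.50 (adjusted p = 0.0392) but not without KO replicate 1, 2 or 3 or WT replicate 1, 2, 4 or 5 (adjusted p = 0.0501 to 0.127). Immediate early genes gave 1 rise among 16 (Jun, 1.03, adjusted p = 0.0441, list median 0.26), which was lost without KO replicate 1, 3 or 5 or WT replicate 1, 2, 3 or 5 (adjusted p = 0.0764 to 0.105).

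The fall with the smallest adjusted p was that of Hp, haptoglobin, the secreted protein that binds free haemoglobin and that fat makes as well as liver. It had 46.7, 60.3, 43.7, 36.9 and 49.4 CPM in KO mice, against 154, 150, 221, 206 and 215 CPM in WT mice. The highest KO mouse was far below the lowest WT mouse, and the log2 fold change of Hp was −1.99 (SE 0.15, adjusted p = 3.67e-07). Of 15 tested acute phase and plasma protein genes, 2 rose and 2 fell (median −0.14). Pon1, a lipoprotein-bound paraoxonase, had 15.9, 19.3, 24.6, 14.6 and 21.5 CPM in KO mice, against 4.21, 0.298, 2.38, 2.29 and 2.88 CPM in WT mice (2.93, SE 0.32, adjusted p = 3.09e-05). Its relative Pon3 rose by 0.68 on the log2 scale (adjusted p = 0.00397). Apoe, apolipoprotein E, fell by 0.69 (adjusted p = 0.0198), though not without KO replicate 1 or 3 or WT replicate 4 or 5 (adjusted p = 0.0527 to 0.0665).

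Of 23 tested cytochrome P450, steroid and glucocorticoid-response genes, 0 rose and 4 fell, with a median log2 fold change of −0.31. In 7 of them every KO mouse was below every WT mouse, as was so for 144 (1.23%) of all tested genes. Cyp2e1, an ethanol- and ketone-oxidising P450, had 59.8, 151, 173, 207 and 142 CPM in KO mice, against 652, 477, 459, 430 and 403 CPM in WT mice (−1.73, SE 0.27, adjusted p = 0.00637). Cyp2f2, another P450, had 2.92, 3.40, 6.37, 5.35 and 5.37 CPM in KO mice, against 21.8, 11.04, 24.1, 20.6 and 14.7 CPM in WT mice (−2.11, SE 0.27, adjusted p = 0.000192). Hsd11b1, which regenerates active glucocorticoid inside fat cells, had 16.6, 17.7, 13.6, 17.4 and 18.98 CPM in KO mice, against 21.0, 34.9, 37.2, 27.9 and 45.1 CPM in WT mice (−0.98, SE 0.18, adjusted p = 0.00637). The calls of Cyp2e1, Cyp2f2 and Hsd11b1 held under all 20 alternatives. Mt2, a metallothionein that glucocorticoids and metals induce, fell by 1.56 on the log2 scale (adjusted p = 0.00124). Other genes that glucocorticoids induce did not pass, with Fkbp5 at −0.76 (adjusted p = 0.0627), and the receptor gene Nr3c1 was at 0.08.

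Nnat, neuronatin, an imprinted gene, had 36.4, 51.8, 42.9, 86.9 and 87.4 CPM in KO mice, against 176, 343, 390, 205 and 200 CPM in WT mice (log2 fold change −2.12, SE 0.33, adjusted p = 0.00939). Mest, an imprinted gene linked to fat expansion in mice, had 3.43, 5.83, 8.91, 7.03 and 4.30 CPM in KO mice, against 8.15, 41.8, 26.2, 21.4 and 20.2 CPM in WT mice (−2.09, adjusted p = 0.0113). The groups were separate in Nnat, while in Mest WT replicate 1 lay below KO replicate 3, and Mest shares 904 exonic bases with Copg2. Bmp3, a ligand of the BMP family, had 5.83, 10.04, 8.91, 8.72 and 8.59 CPM in KO mice, against 20.3, 30.4, 29.5, 23.3 and 14.9 CPM in WT mice (−1.52, adjusted p = 0.000562). These 3 were all the falls, with 0 rises, in a list of 24 tested genes of BMP, TGF-β and Wnt signalling (median −0.26), of which Nnat and Mest are no signalling ligands or receptors. Adora1, the A1 adenosine receptor, which restrains lipolysis, had 22.8, 22.7, 25.0, 13.2 and 20.1 CPM in KO mice, against 47.1, 66.5, 53.9, 39.7 and 42.5 CPM in WT mice (−1.26, SE 0.17, adjusted p = 0.000382), and it shares 661 exonic bases with Mybph. Adora1 did not pass in a fit of all 15 libraries (adjusted p = 0.242), and Mest did not with the muscle level as a covariate (0.0551). Celsr2, a cadherin of planar cell polarity, fell by 1.53 on the log2 scale (adjusted p = 8.28e-05), with no overlap between the groups. Celsr2 did not pass in a fit of all 15 libraries (adjusted p = 0.0538), and Nnat did not among the mice labelled 957 to 979 (0.0715).

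Clock genes gave 0 rises and 3 falls among 16 tested members, of which 3 had a positive fold change, and the median was −0.53. Over all tested genes, 0.512% fell and 48.5% had a positive fold change. Bhlhe41 and Bhlhe40 encode related repressors of the clock. Bhlhe41 had 16.8, 18.0, 25.0, 13.5 and 15.4 CPM in KO mice, against 56.8, 27.5, 35.5, 35.1 and 35.9 CPM in WT mice (−1.13, adjusted p = 0.00336). Bhlhe40 had 24.9, 36.1, 42.4, 27.6 and 16.5 CPM in KO mice, against 49.2, 65.4, 57.2, 51.9 and 78.1 CPM in WT mice (−1.04, adjusted p = 0.00957). In both genes all KO mice were below all WT mice. The other fall was Tef, a clock output factor (−0.58, adjusted p = 0.0456), which was lost without any 1 of KO replicates 1 to 5 or WT replicates 1 to 3 (adjusted p = 0.0511 to 0.15). The core clock genes Per3, Per2 and Nr1d1 had fold changes of −0.80, −1.14 and −0.20 that did not pass (adjusted p = 0.0817 for Per3). None of the 3 falls passed in a fit of all 15 libraries or among the mice labelled 957 to 979. The time of day at which tissue was taken is not given in the sources used here.

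**Figure D5:**
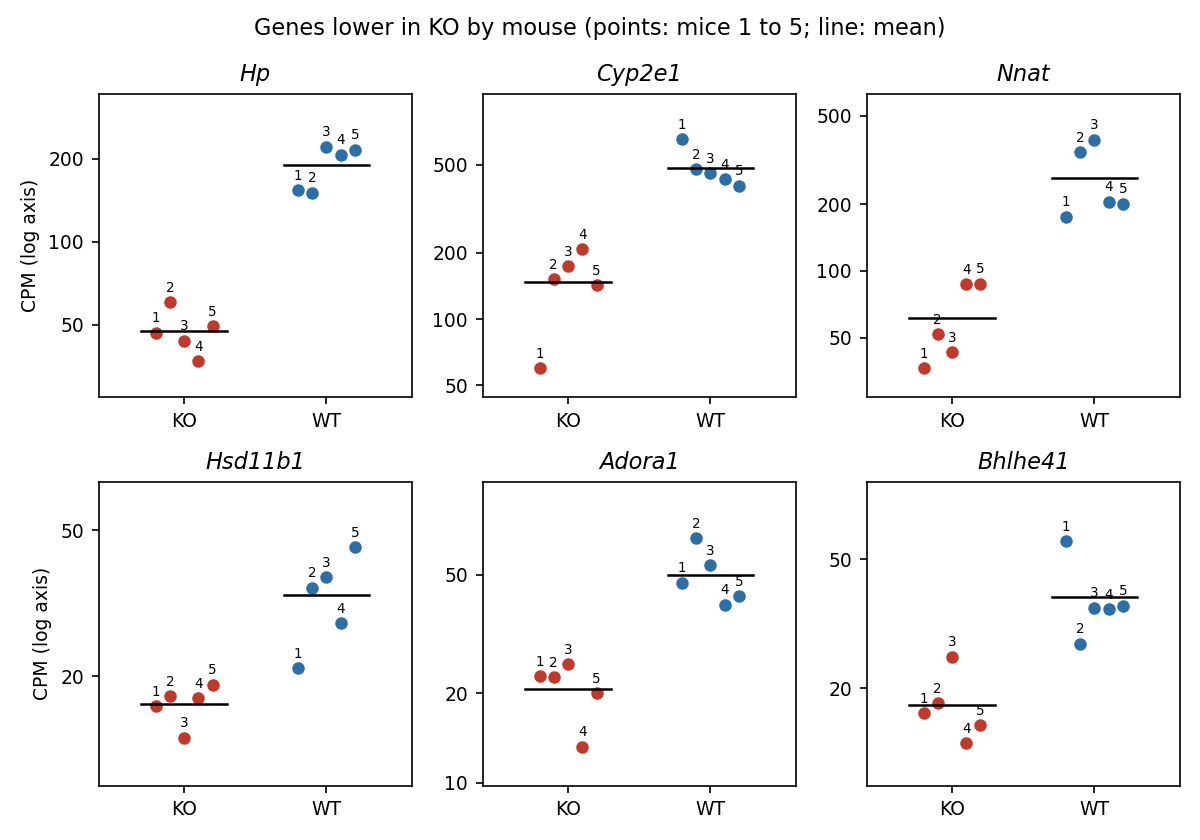
Points are the CPM of single mice (log axis), KO left of WT in each panel, with a line at the group mean, for Hp, Cyp2e1, Nnat, Hsd11b1, Adora1 and Bhlhe41. All 5 KO mice lie below all 5 WT mice in each panel, by a wide margin in Hp, where the highest KO mouse had 60.3 CPM and the lowest WT mouse 150 CPM, and by a narrow one in Hsd11b1, where they had 18.98 and 21.0 CPM.

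Markers of other cell types of the tissue gave 0 calls, which does not set them apart, as few of all tested genes were called. Of all tested genes, 1.91% were called and 48.5% had a positive fold change. Extracellular matrix genes gave 1 rise and 0 falls among 29, with 6 positive and a median log2 fold change of −0.30. That rise was Lox, lysyl oxidase (0.76, adjusted p = 0.0276), which was lost without KO replicate 1, 2 or 3 or WT replicate 1 or 4 (adjusted p = 0.0567 to 0.0735). Vascular and neural growth genes gave 3 rises among 16 (median 0.00), S100b and the calsyntenins Clstn2 and Clstn3, whereas 1.4% of all tested genes rose. Clstn3, of which a form in adipocytes shapes lipid droplets in mice, rose by 1.98 on the log2 scale (adjusted p = 0.0238), and Clstn2 by 1.02 (adjusted p = 0.0114). Clstn2 was lost without KO replicate 1 (adjusted p = 0.0557), and Clstn3 without KO replicate 1 or 2 or WT replicate 3, 4 or 5 (0.0566 to 0.0745). Macrophage markers gave 0 calls among 16, of which 0 were positive (median −0.49), and their summed level was 927 to 1259 CPM in KO and 1123 to 2233 CPM in WT. Preadipocyte (11 genes, median −0.35), endothelial (10, −0.05), lymphocyte (15, −0.04), smooth muscle (8, −0.08) and Schwann cell (5, −0.12) markers gave 0 calls. Proliferation (12, −0.13), red cell (5, −0.08), mast cell and granulocyte (3) and epithelial (1) markers also gave 0 calls, and the 6 mesothelial markers were below the expression filter.

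Some of the most secure rises lay outside these lists. Zfp949, a zinc finger protein, had 28.4, 34.0, 37.3, 30.9 and 38.7 CPM in KO mice, against 8.42, 8.95, 11.3, 9.17 and 7.34 CPM in WT mice (log2 fold change 1.89, SE 0.16, adjusted p = 1.6e-06). Col27a1, a fibrillar collagen chain, had 75.1, 67.4, 46.7, 52.9 and 43.0 CPM in KO mice, against 17.9, 12.2, 16.1, 21.0 and 13.4 CPM in WT mice (1.85, SE 0.18, adjusted p = 1.2e-05). Both were well separated between the groups and were called under all 20 alternatives. Hydin, a protein of motile cilia, had 12.99, 8.26, 8.06, 4.22 and 5.73 CPM in KO mice, against 0.526, 0.895, 0, 1.15 and 1.05 CPM in WT mice (3.50, adjusted p = 0.00023). Cpn2, a subunit of the plasma carboxypeptidase N, rose by 2.20 on the log2 scale (adjusted p = 0.00861). Its lowest KO mouse had 5.01 CPM and its highest WT mouse 4.77 CPM. Hydin and Cpn2 were less secure and had few counts in WT mice, 0 to 4 for Hydin and 1 to 16 for Cpn2. Hydin did not pass in a fit of all 15 libraries (adjusted p = 0.0757). Cpn2 did not pass in that fit (0.175) or among the mice labelled 957 to 979 (0.181). Of the 224 called genes, 26 were called under every one of the 20 alternatives, and 98 under all 10 fits that left out a single mouse.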

How the data were processed

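Per the labels' protocols, RNA was purified with RNeasy kits, made into cDNA libraries with NuGEN Ovation kits and sequenced on an Illumina HiSeq. The submitters' processing notes name FastQC, Subread, featureCounts and edgeR with build mm9, and no versions. Whether counting used strand, and how duplicate or multi-mapping reads were handled, is not given there, so counts of overlapping genes and close paralogs may hold reads of a neighbour. The values used are raw counts of reads per gene, per the file headers, exactly as deposited. The authors' gene length from the same table served for levels per kilobase. A further 45 columns of per-sample values were not used.

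The 10 libraries entered 1 robust quasi-likelihood fit in edgeR 4.0.16 (R 4.3.3), with TMM scaling, edgeR's expression filter (minimum count 10, minimum total 15) and 8 residual degrees of freedom. KO was tested against WT, two-sided, with Benjamini-Hochberg adjustment over 11708 genes, and calls were made below 0.05. SE was computed as the log2 fold change over the square root of F, without its sign. CPM uses the TMM library size. Total counts of 2181109 to 21570688 per library set the precision of low genes, and the biological coefficient of variation between mice was 18.9% in KO and 20.2% in WT. The fit was also run on simulated counts with known changes and the same spread for every gene. That run does not cover differences in spread between genes or single unusual mice.

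Replicates carry mouse labels and were numbered in accession order only to name them, and the labels hold no batch or date. Each library was counted as 1 mouse by its label. Even the closest pair of libraries differed by more than sampling noise (chi-square per degree of freedom 4.04), which cannot by itself show that they came from different mice. The 45 gene lists (912 entries, 906 matched) and the alternatives were chosen with earlier results of these data known. Named genes are Stk11 and 8 fat genes; up to 15 largest rises and 15 largest falls by fold change, from called genes without overlap whose mean log2 CPM reached 1; and from each list up to 4 called members by p, or 2 abundant ones where there was no call. Letmd1, and further list members that did not pass, were chosen after their values were seen. Some results that the rule selects are not reported here. Some alternatives used limma 3.58.1 or DESeq2 1.42.0. Promoters are from RefSeq on GRCm38.p6 and were matched by gene identifier, or else by symbol, for 117 of 164 genes that rose and 41 of 60 that fell.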

Additional observations from a re-analysis of the deposited data

Results flagged for a closer look

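In each group of 5 mice, the highest or lowest mouse was compared with the other 4 by the size of its gap relative to the group's range (Dixon's critical value 0.71). Of 268 groups of named genes, library measures and cell type sums checked, 22 stood out, and chance flags about 1 in 20. Each is given here as a value.

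The most marked were the muscle values. The summed skeletal muscle level was 3657 CPM in KO replicate 3, against 92.3 to 409 CPM in the other KO mice, and 1368 CPM in WT replicate 1, against 25.4 to 109 CPM in the other WT mice. Myh4, a fast myosin heavy chain, was at 1909 CPM in KO replicate 3 and 687 CPM in WT replicate 1, and Myl1, a fast myosin light chain, at 267 and 104 CPM in those mice. Mef2a was at 149.8 CPM in KO replicate 3 (103 to 115 CPM in the other KO mice), Prdx3 at 60.3 CPM (35.5 to 39.4 CPM) and Bckdhb at 37.8 CPM (26.4 to 27.9 CPM). WT replicate 1 also stood out in the epithelial sum, at 79.7 CPM, in the mesothelial sum, at 8.68 CPM (1.79 to 3.15 CPM in the other WT mice), and in Bhlhe41, at 56.8 CPM (27.5 to 35.9 CPM).

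Among the other KO mice, replicate 1 had the highest total count, 21570688, against 2969355 to 6048092 in the rest. Pygo1 was at 1.78 CPM in KO replicate 2 (4.24 to 4.52 CPM in the rest), Mef2c at 156 CPM in KO replicate 4 (120 to 128 CPM) and Mt2 at 5.73 CPM in KO replicate 5 (2.75 to 3.40 CPM). Among the other WT mice, replicate 2 had Gstt3 at 16.4 CPM (5.24 to 6.88 CPM in the rest) and the lowest endothelial sum, 302 CPM (405 to 437 CPM). WT replicate 3 had Prdm16 at 20.9 CPM (8.79 to 9.70 CPM), Trim67 at 22.6 CPM (5.79 to 8.65 CPM) and Hspd1 at 206 CPM (166 to 173 CPM). WT replicate 4 had Lyz2, lysozyme of macrophages, at 1021 CPM (548 to 611 CPM). The comparisons were repeated with each mouse left out in turn, with both muscle-rich mice left out together and with the muscle level as a covariate.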

How the results depend on the processing

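The 224 calls (164 higher, 60 lower) were 337 without the expression filter (256 higher), 357 with DESeq2 (250 higher, 107 lower), 346 with voom (139 lower, which took the higher share to 59.8%), 76 in a fit of all 15 libraries (53 and 23), 124 with the muscle covariate (86 and 38) and 55 in the mice labelled 957 to 979 (32 and 23, 58.2% higher). With both muscle-rich libraries left out, an alternative added after seeing the data, they were 97 (65 and 32). Leaving out 1 mouse gave 119 to 254 calls, 84 to 200 higher and 30 to 82 lower. Size factors, the lymphocyte covariate and removal of mitochondrial ribosomal RNA gave 228, 216 and 221. Of the 224, the numbers called again were 210 without the filter, 224 with DESeq2, 212 with voom, 74 with all 15 libraries, 117 with the muscle covariate and 42 in the labelled subset, and each kept its direction wherever it was tested. The difference in mitochondrial ribosomal RNA share, 1.08 percentage points, reversed to −0.761 without KO replicate 3 and −0.486 without WT replicate 4, within a range of −0.761 to 2.24 over the mice left out in turn; the cause was not tested. No paired analysis was possible because the labels give no replicate numbers shared between the groups. Genes with few counts in libraries of 2181109 to 4062909 counts have wide errors, and smaller fits have fewer residual degrees of freedom.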

Other observations

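Further called genes are given here as single values; they were chosen after their values were seen, with no list behind them. Mtch2, an outer membrane insertase, averaged 99.7 ± 17.7 CPM in KO and 57.1 ± 10.1 CPM in WT (SD, n = 5 each; log2 fold change 0.80, edgeR adjusted p = 0.00543), and Letm1, an ion exchanger of the inner membrane, averaged 65.7 CPM in KO and 38.0 CPM in WT (0.80, adjusted p = 0.00877). Immt, which holds the cristae junctions, averaged 142 CPM in KO and 103 CPM in WT (0.47, adjusted p = 0.0418). Mcart1, a mitochondrial carrier, averaged 188 CPM in KO and 102 CPM in WT (0.88, adjusted p = 0.000231), and Slc36a2, an amino acid transporter known as a surface marker of brown fat, 147 CPM in KO and 75.3 CPM in WT (0.96, adjusted p = 0.000344). Alas1, the first enzyme of haem synthesis, averaged 88.7 CPM in KO and 47.8 CPM in WT (0.88, adjusted p = 0.0156), and Ghr, the growth hormone receptor, 1028 CPM in KO and 647 CPM in WT (0.67, adjusted p = 0.046).

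Some genes of lysosomal and secreted proteins fell. Ctsb, the protease cathepsin B, averaged 351 CPM in KO and 530 CPM in WT (−0.59, adjusted p = 0.0262), and Cd63, a membrane protein of late endosomes, 32.6 CPM in KO and 51.4 CPM in WT (−0.66, adjusted p = 0.0292). C4b, a complement component, averaged 133 CPM in KO and 238 CPM in WT (−0.83, adjusted p = 0.00196), and Slit3, a guidance ligand, 47.4 CPM in KO and 75.8 CPM in WT (−0.68, adjusted p = 0.0044). Macrophages are rich in lysosomal proteins, and the summed macrophage level was 927 to 1259 CPM in KO and 1123 to 2233 CPM in WT; its part in these falls was not tested. Dusp10, a phosphatase of stress-activated kinases, rose 2.82-fold (adjusted p = 0.00336), at 30.1 CPM in KO and 10.7 CPM in WT.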
